A study of Oryza sativa with 6 samples.

Results

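The regions described here are stretches of the rice (Oryza sativa) genome that were called enriched for acetylation of histone H3 at lysine 9 (H3K9ac) in leaves infested for 12 h and in no other leaves of the study. The study had 3 groups of 2 libraries. The first group was uninfested control seedlings, and the others had carried caterpillars of Spodoptera frugiperda (the fall armyworm), in one group for 3 h and in the other for 12 h. All were seedlings 20 days old, and leaf nuclei were profiled by CUT&Tag. In that assay a transposase tethered to an antibody inserts sequencing adapters near the mark. The calls of the 6 libraries on the 12 nuclear chromosomes were merged wherever they shared at least 1 bp, which gave 17468 merged regions. Regions were chosen by these calls alone, being kept when both 12 h lists called them and no control or 3 h list did. This rule found 589 regions, 3.37% of all merged regions; the same rule for the 3 h lists found 432 regions, 2.47%.

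H3K9ac is laid down by histone acetyltransferases and removed by histone deacetylases. In plants it is found mainly around the starts of genes that are being transcribed, and it can be gained or lost within hours when a leaf meets stress. Chewing caterpillars set off wound and jasmonate signalling in rice leaves, and the mark is one of the chromatin features studied during such responses. Peak lists record where the mark passed a threshold, so a region missing from a list was below that threshold and was not shown to lack the mark.

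The calls themselves chose these regions, so their presence at 12 h and absence elsewhere is the rule and not a result, and the folds and q-values at 12 h are given as a description without a test. Nothing in the labels says whether the 2 libraries of a group came from separate plants, so the spread between them may be technical. The labels also give no hour of collection and no uninfested group for each time, so 12 h of infestation and the hour at which leaves were taken cannot be told apart. Genes, gene starts and base composition were not analysed here, because no genome sequence or annotation of build IRGSP-1.0, on which all positions below are given, was used. The leaf label was for the same reason not checked against marker genes.

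The lists differed in length and depth. There were 12548 and 12167 peaks at 12 h, 11738 and 14010 at 3 h, and 5150 and 5644 in control. The genome background, estimated from the p-values and folds that the authors deposited, was 1.49 and 1.43 fragments at 12 h, against 2.0 to 2.4 fragments in the other 4 libraries. The fewest fragments at a called summit were 6 in each 12 h list, 8 in each 3 h list, and 9 and 8 in the control lists. The lowest fold called at genome background lay between 2.71 and 3.00 in all 6 lists. A region could thus be called on fewer fragments at 12 h than in any other library, though not at a much lower fold. The part of this difference in the 589 regions was not tested.

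The regions called only at 12 h made up a small share of what the 12 h lists held. Both 12 h lists called 8324 merged regions, and 589 of these (7.08%) were called in no other list. A further 1087 (13.1%) were called in exactly 1 other list, 2329 (28.0%) in 2, 1662 (20.0%) in 3 and 2657 (31.9%) in all 4. Of the 1087 regions with 1 other list, 703 were called in 3 h replicate 2, 321 in 3 h replicate 1, 46 in control replicate 2 and 17 in control replicate 1. Among the control and 3 h lists, the count of regions called only at 12 h therefore rested most on the longest one. Without 3 h replicate 2 it was 1294, and without 3 h replicate 1 it was 913. With a single 12 h list required it was 1736 without 12 h replicate 1 and 1790 without 12 h replicate 2, and it was 606 and 635 without control replicates 1 and 2.

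Among all 15 pairs of libraries, the 12 h pair shared the most regions that no other list called. The 3 h pair shared 432, and the control pair 46. Leaving out 3 h replicate 1 or 2 turned the 432 into 2055 or 1358, and leaving out 12 h replicate 1 or 2 into 895 or 863. Pairs made of a 3 h and a 12 h library shared 430 and 432 regions where the 3 h library was replicate 2, and 232 and 223 where it was replicate 1. The 589 of the 12 h pair are the rule itself, and the lists are of unequal length, so these counts are a description of the lists as deposited. The exclusive regions of the 3 h pair were as many as those of 3 h replicate 2 with 12 h replicate 2. A further 1133 regions were called in 12 h replicate 1 alone and 1114 in 12 h replicate 2 alone. Of all regions that a 12 h list held to the exclusion of control and 3 h lists, the other 12 h list also called 34.2% (replicate 1) and 34.6% (replicate 2). The same shares were 32.8% and 21.3% for 3 h replicates 1 and 2, and 14.2% and 16.3% for control replicates 1 and 2.

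**Figure D1:**
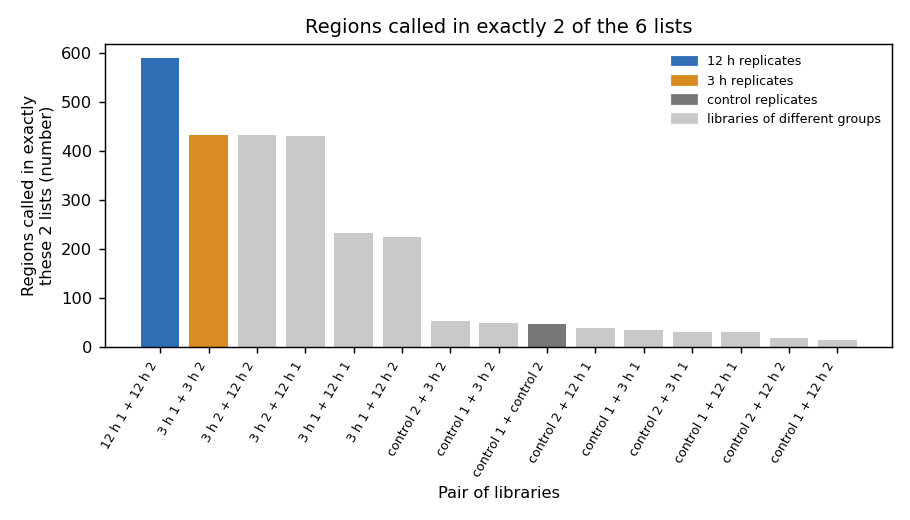
Number of regions called in exactly 2 of the 6 lists, for each pair of libraries; the numbers 1 and 2 after a group name are replicates. The 12 h pair stands at 589, the next 3 pairs at 430 to 432, and every pair with a control library at 52 or fewer.

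Most of these regions were short, single and weakly enriched in the lists as deposited. Their merged width had a median of 676 bp and ran from 372 to 2085 bp. In 550 of the 589 (93.4%) each 12 h list gave 1 summit, the point of highest coverage within a call. In 39 at least 1 list gave 2 summits, and in 8 both did. List by list, 96.8% and 95.2% of them had 1 summit in 12 h replicates 1 and 2. Of all merged regions called in those lists, 88.0% and 89.4% did. Of the regions called only at 3 h, 98.1% and 97.2% had 1 summit in 3 h replicates 1 and 2. The fold is the authors' ratio of coverage at the summit to the local background of the same library, after 1 is added to each. It had a median of 3.65 in 12 h replicate 1 (2.29 to 7.15) and 3.71 in 12 h replicate 2 (2.29 to 7.09). The −log10 q had medians of 3.30 and 3.38, where 1.30 is the threshold of the lists. Summit coverage had a median of 11 fragments in each list, with lowest values of 6 in each and highest values of 42 and 40. The local background had medians of 1.41 and 1.43 times the genome background. Width and fold of the regions that the rule finds depend on the list threshold. The mean of the 2 median folds, 3.68, was 4.81 with a −log10 q of at least 5 in all lists and 4.82 with lists of equal length. The mean of the median called widths, 499 bp, was 751 and 744 bp. Both settings keep only the calls with the highest −log10 q. Only 30 of the 361 regions of the first and 37 of the 270 of the second overlapped one of the 589, so these values describe mostly other regions.

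Within the 12 h lists the regions lay low in the order of enrichment. Their folds were below the median of the list in both libraries for 301 of the 589 (51.1%), and in the top 10% of both lists for 3 (0.509%). The same shares over all regions called in both 12 h lists were not computed. The values rose step by step with the number of control and 3 h lists that called a region too. In 12 h replicate 1 the median fold was 3.51 for regions called in that list alone, 3.65 for the regions called only at 12 h, 3.80 with 1 other list, 4.12 with 2, 4.42 with 3 and 4.80 with all 4. In 12 h replicate 2 the same medians were 3.57, 3.71, 3.76, 4.12, 4.38 and 4.75. The median called width followed the same order, from 392 bp through 473, 525, 643 and 710.5 to 909 bp in 12 h replicate 1, and from 432 bp through 525, 563, 669 and 742 to 939 bp in 12 h replicate 2. At the 589 regions the narrowest called width was 345 bp in replicate 1 and 372 bp in replicate 2, and several regions shared each value. Widths are thus better compared within a list than between the 2 lists. The regions called only at 12 h were thus next to the weakest step of the scale in both libraries. This place was not particular to them. In the 3 h lists the mean of the 2 median folds was 3.28 for regions called in 1 list alone and 3.44 for those called only at 3 h. It was 3.81 for regions called in all 4 infested lists and no control list, and 4.43 for those called in all 6.

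**Figure D2:**
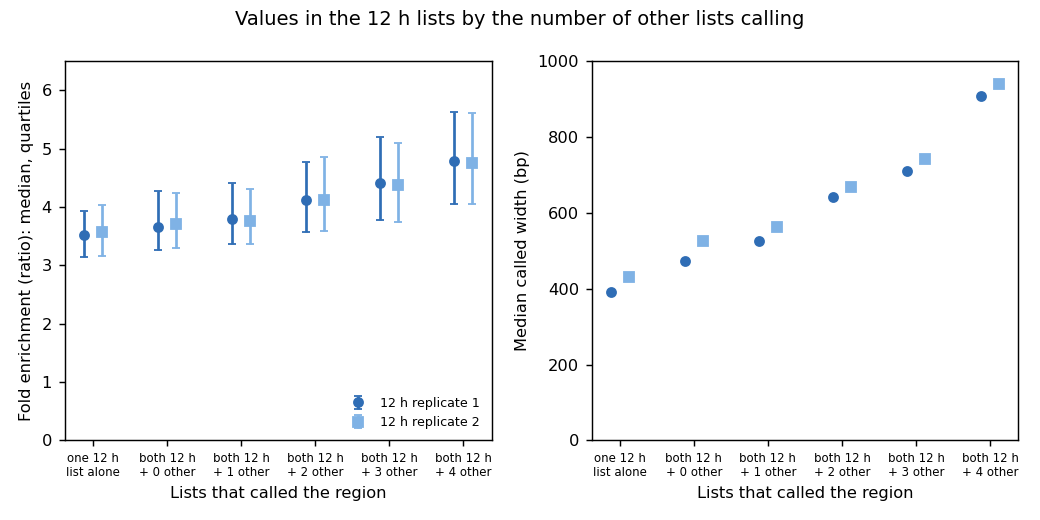
Fold enrichment (left; points are medians and bars the quartiles, as a ratio) and median called width (right, in bp) in each 12 h list, by which lists called the region. The regions called only at 12 h are at "both 12 h + 0 other", where the medians are 3.65 and 3.71 for fold and 473 and 525 bp for width, and both quantities are highest where all 4 other lists called.

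The folds of the 2 libraries were within 1.5 times of each other in 546 of the 589 regions (92.7%). Both folds had to pass the call threshold, and their quartiles were only 3.26 to 4.28 and 3.29 to 4.24 in 12 h replicates 1 and 2. That share therefore says little about how well the replicates agree. The fold was higher in 12 h replicate 1 in 294 regions (49.9%). The rank correlation of fold between the replicates was 0.25 across the 589 regions, all read from the same pair of libraries. For the 432 regions called only at 3 h it was 0.31 between the 3 h replicates. For the 1087 regions called in both 12 h lists and 1 other list it was 0.32 between the 12 h replicates. It was 0.54 over all 8324 regions called in both 12 h lists. Over the 2068 regions called in all 4 infested lists and no control list it was 0.40. Over the 2657 called in all 6 lists, where folds range more widely, it was 0.62. Where a list gave 2 summits, that of highest fold was taken for distances between summits. Summits of the 2 libraries were a median of 121 bp apart and within 100 bp in 252 regions (42.8%). That share was 43.1% between the 3 h replicates at the regions called only at 3 h. At the regions called in both 12 h lists and 1 other list it was 40.8%, and at those called in all 6 lists 46.1%. No test was made of these differences. The 2 calls shared at least 50% of the shorter one in 527 regions (89.5%).

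Set beside the 432 regions called only at 3 h, those called only at 12 h reached higher folds, a difference that was described and not tested. The lower of the 2 folds had a median of 3.39 at the 12 h regions and 3.20 at the 3 h regions, and it was at least 4 in 95 of 589 (16.1%) and in 27 of 432 (6.25%). It was at least 5 in 8 of the 12 h regions and in 1 of the 3 h regions. The leading 3 h region spanned 17433127 to 17433634 on chromosome 5, where the lower fold was 5.13. The next were 4337621 to 4338495 and 29522720 to 29523204, both on chromosome 1, with lower folds of 4.90 and 4.52. Folds were higher at 12 h over the lists as a whole as well, with medians per merged region of 4.05 and 4.11 in the 12 h lists and 3.83 and 3.73 in the 3 h lists. Median summit coverage was 11 fragments in each 12 h list for the 12 h regions and 13 in each 3 h list for the 3 h regions. The higher folds at 12 h came with fewer fragments over a lower background.

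The highest lower fold was that of 10897948 to 10898461 on chromosome 10, where 12 h replicates 1 and 2 gave 7.15 and 7.09. Its summits lay 30 bp apart, with 18 and 19 fragments. Within 100 kb on either side were 15 merged regions including itself, and 6 of them were called in all 6 libraries. One of these 6, from 10919108 to 10919804, had a fold of 13.7 and 14.8 in the control libraries. At 3 h its folds were 12.8 and 10.5, and at 12 h they were 15.0 and 14.2. Another region called only at 12 h, from 10931319 to 10931989, had folds of 4.35 and 3.50. The leading region thus sat among strong calls shared by every library, several of them stronger than itself.

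On chromosome 1, 29081106 to 29082034 gave 12 h folds of 6.54 and 6.38, with 22 fragments at the summit in each library. The nearest control calls were 69635 and 109197 bp away, and 3 h replicate 2 had a call with a fold of 3.00 at 8815 bp. On chromosome 4, 4640176 to 4641048 gave 6.05 and 6.10, and the nearest call of any control or 3 h list was 81771 bp away. These and the chromosome 10 region were the 3 whose lower fold was at least 6.

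The region with the most fragments was also on chromosome 4, from 34489946 to 34491512. Its folds were 5.64 and 5.54, its summit coverages 42 and 40 fragments, and its −log10 q values 16.4 and 15.5. Calls of the 3 h lists with folds of 3.20 and 2.31 lay 4043 and 4280 bp away, and the nearest control calls were 43243 and 43272 bp away. This region was wide, at 1567 bp, and had more than 3 times the median coverage of the others in both libraries.

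Of the other leading regions, 7730156 to 7731032 on chromosome 8 gave folds of 5.63 and 5.76. On chromosome 9 from 6529342 to 6530003 they were 5.63 and 5.07, and the nearest call of a control or 3 h list was 123360 bp away. On chromosome 2 from 5812781 to 5813611 the fold was 5.06 in replicate 1 and 6.66 in replicate 2, and the nearest 3 h calls were 5228 and 5323 bp away. These 3 differ in that the chromosome 9 region stood alone over more than 100 kb, whereas the chromosome 2 region had calls of all 4 other libraries within 10 kb. On chromosome 1, 2 further leaders spanned 37576987 to 37577558, with folds of 5.07 and 5.24, and 20514453 to 20515079, with 4.82 and 5.35. The leader spanning 25102490 to 25102997 on chromosome 4 gave 5.13 and 4.92. On chromosome 12, 15972933 to 15973693 gave 4.89 and 6.13, and on chromosome 2, 4393149 to 4393709 gave 4.82 and 6.18. The 2 leaders with a lower fold of 4.82 shared that value with 4 regions not named, since low whole numbers of fragments give tied folds. The 12 leaders were on 7 chromosomes; 7 had a 3 h call within 10 kb, 4 had a control call there, and 4 had neither.

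**Figure D3:**
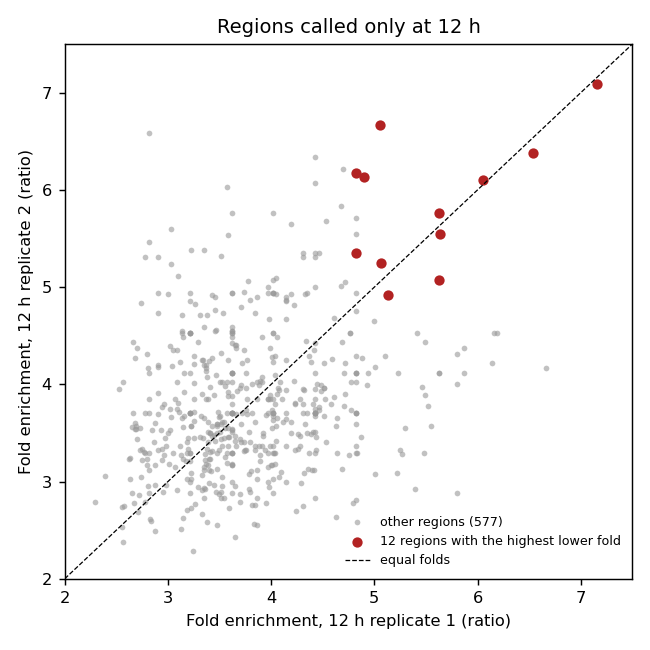
Fold enrichment in 12 h replicate 1 (x axis, ratio) against 12 h replicate 2 (y axis, ratio) for each of the 589 regions; red points are the 12 with the highest lower fold and the dashed line marks equal folds. Most points lie between 3 and 5 on both axes, and the 3 red points nearest the upper right corner have folds of at least 6 in both libraries.

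A −log10 q of at least 5 in both libraries was reached by 30 regions (5.09%). They were on 11 chromosomes, with 5 on chromosome 4 and none on chromosome 7. Their median width was 843 bp (439 to 1700) and the lower of their 2 summit coverages had a median of 16 fragments (12 to 40). In 27 of the 30 each list gave 1 summit, and 16 of the 30 had summits within 100 bp of each other. A 3 h call lay within 10 kb of 19 of them and a control call within 10 kb of 8, and 9 had neither.

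The widest region was on chromosome 1 from 37557646 to 37559730, at 2085 bp. Its call in 12 h replicate 2 covered all of it with a fold of 2.75, while 12 h replicate 1 called 936 bp of it with a fold of 4.31. Replicate 1 gave 2 summits and replicate 2 gave 1, and the summits of highest fold were 1562 bp apart. The next widest, on chromosome 10 from 12900323 to 12902022 (1700 bp), was called over 1481 and 1700 bp with folds of 5.01 and 4.18 and 2 summits in each list. On chromosome 4, 28091007 to 28092690 (1684 bp) gave folds of 3.69 and 3.44, also with 2 summits in each list. In all, 8 regions tied at 2 summits in both lists. Those with the highest lower folds were the chromosome 10 region and, on chromosome 4, 498072 to 499220 and 25867993 to 25869305. The folds of these 2 chromosome 4 regions were 4.22 and 4.04 and 4.32 and 3.94. The replicates differed in extent at the chromosome 1 region. At that from 28091007 the called widths were similar, at 1045 and 1102 bp, and neither list covered all 1684 bp. The summits of highest fold in the 2 lists were 1159 bp apart there.

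Regions at the edge of the rule were picked for a −log10 q close to the threshold, so their nearness to it was fixed by that choice. Those just inside had the lowest −log10 q at 12 h. Those just outside had the lowest −log10 q in the 1 other list that called them. Just inside, the regions on chromosome 11 from 5326531 to 5327028 and on chromosome 1 from 36690795 to 36691511 each had a −log10 q of 1.30 in 12 h replicate 2, with folds of 2.55 there and of 3.48 and 3.87 in replicate 1. Chromosome 7 from 19970851 to 19971404 followed, with a −log10 q of 1.32 and folds of 3.22 and 2.73. Just outside, 25117255 to 25118113 on chromosome 1 gave 2.82 and 2.36 at 12 h and was called in control replicate 1 as well, with a fold of 2.26 and a −log10 q of 1.32. On chromosome 5, 28499653 to 28500598 (folds 3.75 and 3.02) and 26600944 to 26601464 (3.48 and 3.28) were also called in 3 h replicate 2, at −log10 q values of 1.34 and 1.36. In 12 h replicate 2 the −log10 q of these 3 regions just outside was 1.75, 2.06 and 2.40. Those just inside were lower there, but they had been chosen as the lowest at 12 h. In 419 of the 589 regions (71.1%) both summit coverages were at least 9 fragments, the most that any control or 3 h list needed for its weakest call. In 43 regions (7.30%) both were under 9 fragments. The lower fold was at or above 3.00, the highest of the lowest folds those lists called at genome background, in 461 regions (78.3%).

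A nearby call that does not overlap was not used by the rule, so the distance to calls of the other lists could be compared between libraries. Within 5 kb of a region called only at 12 h, control replicates 1 and 2 had a call at 4.92% and 8.49% of regions, and 3 h replicates 1 and 2 at 18.7% and 21.1%. Both 3 h values were above both control values. The mean was 6.71 ± 2.52% (SD, n = 2) for control and 19.9 ± 1.68% (SD, n = 2) for 3 h, a difference of 13.2 percentage points (exact permutation test, two-sided, p = 0.33, the smallest that 2 libraries against 2 can give). The difference went to −0.19 points with all lists shortened to 5150 peaks, and to 0.59 points (exact p = 1) when control and 3 h lists alone were shortened and the 589 regions kept. The first of these settings also changed the regions, to 270 of which 37 overlapped one of the 589.

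A call of any control or 3 h list lay within 1 kb of 44 regions (7.47%), within 10 kb of 359 (61.0%) and within 50 kb of 576 (97.8%). Regions that overlap such a call were left out by the rule. Within 1 kb of a call of control replicates 1 and 2 lay 0.849% and 1.70% of the regions. For those called in all 4 infested lists and no control list the shares were 0.822% and 0.484%, and for those called only at 3 h 3.01% and 2.78%. The median distance was 27.2 and 21.6 kb to control replicates 1 and 2 and 11.4 and 9.57 kb to 3 h replicates 1 and 2. The nearest 3 h call was closer than the nearest control call for 486 regions (82.5%). With control and 3 h lists shortened to 5150 peaks, a setting chosen after seeing the data, the medians were 27.2 and 24.9 kb to the control lists and 26.7 and 26.9 kb to the 3 h lists, and a 3 h call was the closer for 336 regions (57.0%). Of the regions called only at 3 h, 9.72% and 10.6% lay within 5 kb of a call of control replicates 1 and 2, both above the 12 h values, and 21.8% and 23.6% within 5 kb of a call of 12 h replicates 1 and 2; these differences were not tested. The neighbour nearest to a region called only at 12 h was called in all 6 lists for 71 regions (12.1%), and such regions were 15.2% of the other merged regions. For 74 (12.6%) it was called in all 4 infested lists and no control list, a class that made up 11.8%. For 27 (4.58%) it was another region called only at 12 h, a class that made up 3.37%. The classes of nearest neighbours were thus close to their shares among all regions.

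**Figure D4:**
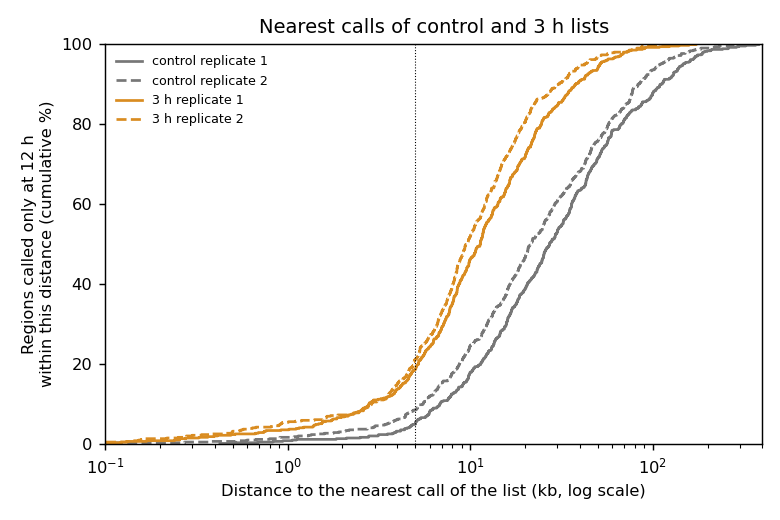
Cumulative share (%) of the 589 regions that lie within a given distance (kb, log scale) of the nearest call of each control and 3 h list; the dotted line marks 5 kb. At 5 kb the control lists stand at 4.92% and 8.49% and the longer 3 h lists at 18.7% and 21.1%.

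The regions were spread over all 12 chromosomes. Chromosome 1 held 85, the most, and chromosome 9 held 29, the fewest. As a share of the merged regions of a chromosome, those called only at 12 h ran from 2.54% on chromosome 6 (36 of 1419) to 4.28% on chromosome 10 (40 of 935), around the 3.37% of the whole set. Chromosomes 4 and 7 followed chromosome 10, at 4.06% and 3.95%. Regions called only at 3 h ran from 2.03% on chromosome 8 to 2.99% on chromosome 11, around 2.47%. On chromosome 6 both shares were 2.54%, and on every other chromosome the 12 h share was the higher. No test was made of these shares, since regions are not replicates.

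**Figure D5:**
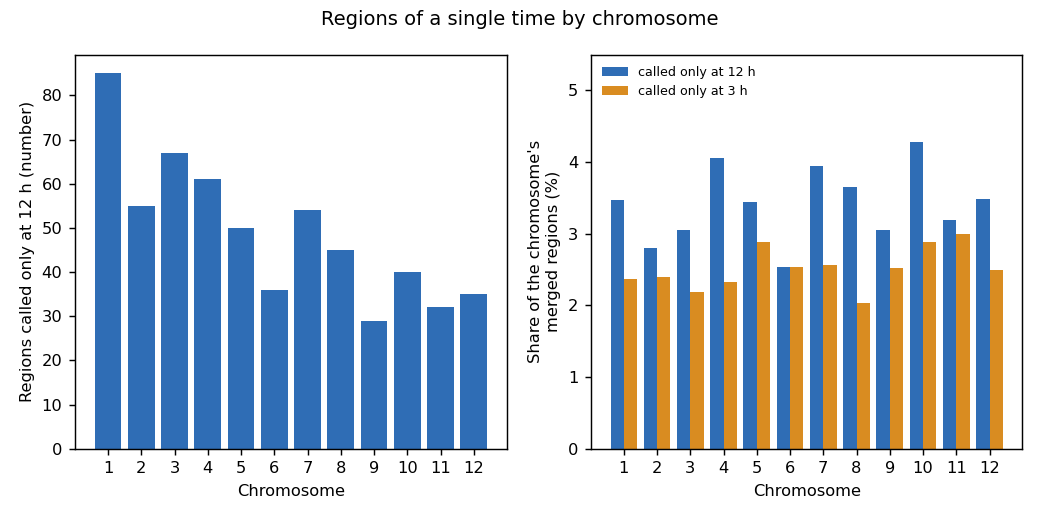
Regions called only at 12 h on each chromosome (left, number) and the share of each chromosome's merged regions called only at 12 h or only at 3 h (right, %). The 12 h share runs from 2.54% on chromosome 6 to 4.28% on chromosome 10 and the 3 h share from 2.03% to 2.99%.

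Along the chromosomes they followed the density of calls. Of 367 full windows of 1 Mb, 96 held no region called only at 12 h, the median window held 1, and 4 windows held 6, the highest number. Those 4 were on chromosome 1 from 32000001, on chromosome 4 from 25000001 and from 31000001, and on chromosome 10 from 18000001. In the 127 windows with the fewest merged regions (9 to 35) those called only at 12 h were 3.28% of all merged regions, in the 117 intermediate windows (36 to 56) 2.83%, and in the 123 densest windows (57 to 90) 3.74%. The densest windows held 2.53 of them on average and the sparsest 0.866, while their share of all merged regions moved far less.

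Runs of neighbouring regions were short. The median gap between one such region and the next was 366 kb, 67 gaps were 50 kb or less, and the smallest gap was 1218 bp. Linking regions across gaps of at most 50 kb gave 9 runs of 3 and none longer. In 3 of the runs no other merged region lay between the members: chromosome 1 from 37557646 to 37577558, chromosome 5 from 19814600 to 19838591, and chromosome 12 from 27070253 to 27099337. The chromosome 1 run, 19.9 kb long, joined the widest region of all to one of the leading 12. The lower folds in the chromosome 12 run were 3.70 to 4.12, and those in the chromosome 5 run 2.87 to 3.46. The other 6 runs, on chromosomes 1, 5, 6, 8, 9 and 10, spanned 4 to 7 merged regions each, and a region called in all 6 lists lay within 4 of them.

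Outside the nuclear chromosomes the same rule found nothing at 12 h. Of 78 merged regions on unplaced scaffolds and the organelle genomes, 0 were called only in both 12 h lists, 1 only in both 3 h lists and 1 only in both control lists. On the nuclear chromosomes the share called only in both 12 h lists was 3.37%. With 78 regions, a count of 0 cannot be told apart from that share.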

How the data were processed

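H3K9ac CUT&Tag libraries of rice leaves (2 control, 2 infested for 3 h, 2 infested for 12 h) were analysed from the peak list that the authors deposited for each library. The submitters' processing notes name build IRGSP-1.0, MACS2 2.1.0, Bowtie 1.1.2, Trimmomatic 0.33 and bcl2fastq 2.17. Neither settings nor duplicate removal nor an input library is given in the sources. The authors' lists give for each peak the fold, the −log10 p-value, the −log10 q-value and a whole-number score, which was not used. The fold is a ratio of summit coverage to local background, after 1 is added to each. These are values within a list; levels across lists were set side by side only as a description.

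Calls were merged where they shared 1 bp. Whole summit coverage and local background were recovered from the deposited fold and −log10 p (tolerance 0.001) for 100% of peaks in every list, and each list's lowest local background served as its genome background. Coverage limits the precision of each fold. The merging rule, the distances and the recovery were tested on simulated lists. Shares per library were tested by two-sided exact permutation. The regions, rules and lists were chosen with earlier results of these data known. Regions were named by these rules: the 12 highest by the lower of their folds, the 3 widest, the 3 with most summits, the 3 nearest to each side of the rule's edge, runs of 3 or more across gaps of at most 50 kb, and the 3 leading regions called only at 3 h. Planned results on gene starts, gene lists, leaf markers, base composition and motifs were not run, because no sequence or annotation of build IRGSP-1.0 was used. Alternatives were other q thresholds, lists of equal length, other merging distances and overlaps, other distances to calls, a coverage minimum and leaving out each library. Python 3.11.15, numpy 2.4.6, pandas 2.3.3, scipy 1.17.1 and matplotlib 3.10.9 were used.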

Additional observations from a re-analysis of the deposited data

How the results depend on the processing

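The number of regions called only at 12 h, 589, was 588 and 576 when calls were merged within 200 and 1000 bp, 534 when calls had to share 50% of the shorter one without merging, and 419 with at least 9 fragments at both 12 h summits, a limit chosen after seeing the data. It was 361 with a −log10 q of at least 5 in all lists, 30 with that limit on the 12 h lists only, and 270 with lists of equal length. Only 30 of the 361 regions and 37 of the 270 overlapped one of the 589, so these settings named mostly different regions; the shorter control and 3 h lists no longer held weak calls that had kept stronger 12 h regions out. Leaving out each library in turn gave 606 to 1790 regions. Of the 12 leading regions, 10 were kept with the −log10 q limit and 12 with lists of equal length. Both settings only remove calls, so whether a leader stayed depended on its own −log10 q at 12 h alone. These counts are therefore no test of the leaders. Leaving out a library or asking for 9 fragments could not remove any leader. The count for 3 h, 432, was 305 with the −log10 q limit in all lists, 1972 with it on the 12 h lists only and 148 with equal lengths. It was 2055 and 1358 without 3 h replicates 1 and 2, 895 and 863 without 12 h replicates 1 and 2, and 484 and 509 without control replicates 1 and 2. The difference in calls within 5 kb between 3 h and control lists, 13.2 points, was 11.3 to 15.4 points with each library left out, 3.60 points with the −log10 q limit, 3.23 points within 1 kb, 27.8 points within 10 kb, 16.2 points with at least 9 fragments, −0.19 points with lists of equal length (exact p = 1) and 0.59 points with only control and 3 h lists shortened. With a replicate block, in which labels are swapped within a replicate number, the difference was the same 13.2 points (exact permutation p = 0.5, the smallest for 2 pairs); nothing in the labels says that a shared number means a shared batch. Settings for gene starts were not run, for want of an annotation of the build. The lower of the 2 summit coverages had a median of 10 fragments (quartiles 8 and 12) and went down to 6. A call on as few as 6 fragments cannot separate a region that changed from one near the threshold. The part of depth in the 589 regions was not tested.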
